A study of Mus musculus with 16 samples.

Results

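The complement and acute phase genes described here are C3, Saa3, Lcn2, Clu, C4b, Cfb and Serping1, taken from the deposited gene table by these symbols, 7 of 46348 genes. They were measured by sequencing poly(A)-enriched RNA from MEC1, an established mouse line of epicardial cells, the mesothelial cells that cover the heart. The 8 groups, of 2 libraries each, were cells transfected with a control siRNA, an siRNA to Prmt1, an siRNA to Trp53 (p53) or the 2 together, and each of these 4 was sampled without and with TGF-beta. All groups therefore carry an siRNA, the untreated controls too, and no group is free of transfection. The amount of siRNA and the dose and duration of TGF-beta are not given in the sources used here. The series calls the 2 libraries of a group biological replicates, and nothing says whether they came from separate cultures, so p-values measure the spread between these libraries of 1 line.

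Complement is a chain of plasma proteases and their substrates that marks surfaces for removal. The classical pathway runs from C1 through C4 and C2, the alternative pathway through factor B, and both cleave C3, whose fragments coat the surface and start the lytic complex. Acute phase genes are those whose secreted products rise with inflammation, in liver and in local tissue, under IL-6, IL-1 and TNF through STAT3, C/EBP and NF-kappa-B factors. The epicardium is known as a source of secreted signals in the injured heart, and TGF-beta turns its epithelial cells towards a mesenchymal state. PRMT1 is a protein arginine methyltransferase and p53 a stress-response transcription factor.

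Libraries held 19617874 to 30759317 counts, and 15494 genes passed the filter on low counts and were tested, 6 of the 7 members among them. Lcn2, with 57 counts over the 16 libraries, did not pass. Both siRNA targets were lower where they were meant to be. Prmt1 averaged 64.8 to 75.8 CPM in the 4 groups with PRMT1 siRNA and 149 to 224 CPM in the other groups. Trp53 averaged 136 to 190 CPM without p53 siRNA. It was at 54.8 CPM untreated and 66.5 CPM treated with p53 siRNA alone, and at 89.4 and 90.0 CPM with both siRNAs. Trp53 was therefore less reduced with both siRNAs than with p53 siRNA alone. One library, replicate 2 of the p53 siRNA plus TGF-beta group, stands apart: its group partner differed from it by a root mean square of 0.805 on the log2 scale over the tested genes, against 0.341 to 0.426 within the other groups, and 5.75% of its counts were in the ribosomal RNA gene Rn18s-rs5. Several results that rest on it are given with and without it, and group means and the shares drawn from them include it. All 10 epicardial and mesothelial markers of a list were tested. Of the markers of other cell types, the 8 macrophage markers, 3 of them tested, summed to 1.98 to 6.41 CPM. Among them Adgre1 was at 0 in every library and Ptprc in both libraries of 5 groups. Lyz2, Fcgr1, Cx3cr1 and Mrc1 were each at 0 in both libraries of some group, and Csf1r and Cd68 of none. The neutrophil and hepatocyte lists summed to at most 0.290 and 0.417 CPM in any library. Cardiomyocyte markers summed to at most 0.352 CPM, lymphocyte markers to 0.600 to 5.52 CPM and endothelial markers to 4.16 to 9.29 CPM.

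In untreated control cells 3 of these genes were abundant and the others were not. Per kilobase of transcript, so that genes can be compared, Saa3 stood at 158 ± 25.1 CPM per kb and Clu at 157 ± 8.55 (SD, n = 2), and C3 at 92.9 ± 3.32. Serping1 was at 12.9 CPM per kb, C4b at 1.71, Cfb at 0.789 and Lcn2 at 0.103. The levels of Saa3 and Clu differed by less than the spread between libraries. All other values below are CPM that are not divided by length and are compared only within a gene.

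C3 encodes the central complement protein (chromosome 17, 57203970 to 57228136, mm10, minus strand). Saa3 encodes a serum amyloid A, an acute phase apolipoprotein made outside the liver in mice (chromosome 7, 46711998 to 46715676, minus strand). RefSeq promoter windows (GRCm38.p6) were at hand for 3 members, C3, Saa3 and Lcn2, and those of C3 and Saa3 are shown because both genes rose with PRMT1 siRNA and fell with TGF-beta (below). Each is the 250 bases before the gene's start, 5′ to 3′ on the gene's strand, at chr17:57228137-57228386 for C3 and chr7:46715677-46715926 for Saa3. Capitals mark matches to a searched motif.
C3: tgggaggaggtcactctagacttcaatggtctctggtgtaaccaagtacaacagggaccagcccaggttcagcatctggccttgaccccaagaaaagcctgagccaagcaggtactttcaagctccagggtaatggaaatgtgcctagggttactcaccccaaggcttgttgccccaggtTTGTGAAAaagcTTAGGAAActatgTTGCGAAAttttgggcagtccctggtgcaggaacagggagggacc
Saa3: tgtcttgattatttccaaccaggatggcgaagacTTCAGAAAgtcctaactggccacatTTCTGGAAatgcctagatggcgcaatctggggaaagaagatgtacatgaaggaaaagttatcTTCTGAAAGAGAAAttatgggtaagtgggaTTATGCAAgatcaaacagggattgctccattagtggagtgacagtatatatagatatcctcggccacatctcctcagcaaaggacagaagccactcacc
The 5 motifs searched, on both strands, were C/EBP (TTNNGNAA), STAT (TTCNNNGAA), AP-1 (TGANTCA), the interferon response element (GAAA, any 2 bases, GAAA) and the kappa-B consensus. C3 held 3 C/EBP matches, whose first bases are at positions -70, -58 and -45 from the gene's start, the last of them on both strands. Saa3 held 4 C/EBP matches, at -216, -191, -129 and -99, and 1 interferon response element at -125 that overlaps the C/EBP match at -129. At least 1 C/EBP match is in 36.8% of the 32851 upstream windows of this length in the table, and an interferon response element in 2.98%. How many windows hold several C/EBP matches was not counted. STAT, AP-1 and kappa-B letters, which are in 7.02%, 6.75% and 7.25% of windows, were in neither.

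The first comparison asks what TGF-beta did to these genes with control siRNA. All but 1 of the 6 tested members fell, C3, Saa3, Clu and C4b to 5.97% or less of their untreated level and Serping1 to 26.9%. Over all genes tested, 20.6% were called lower in this comparison (edgeR adjusted p under 0.05), and the median log2 change was -5.29 over the 6 members and -0.0087 over all genes. The members' count and median include C4b, which passed the filter only through its untreated libraries. In bulk RNA, fewer cells that express a gene and less RNA per cell cannot be told apart.

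The C3 level was 465 and 489 CPM in the 2 untreated control libraries and 26.8 and 30.2 CPM with TGF-beta, a log2 change of -4.06 ± 0.12 (SE, adjusted p = 5.08e-10). Untreated Saa3 was at 97.5 and 77.8 CPM, and treated Saa3 at 0.545 and 0.296 CPM from 10 and 7 counts, a change of -7.73 ± 0.34 (adjusted p = 9.00e-09). Its liver paralogues Saa1 and Saa2 were at 0 in all control libraries.

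Clu encodes clusterin, a secreted chaperone that binds the lytic complement complex (chromosome 14, 65968483 to 65981548, plus strand). It went from 295 and 273 CPM in untreated to 2.34 and 3.22 CPM in treated libraries, a log2 change of -6.65 ± 0.23 (adjusted p = 1.50e-09). Serping1 encodes the C1 inhibitor, which blocks the first proteases of the classical pathway (chromosome 2, 84765387 to 84775444, minus strand). It went from 22.7 and 22.8 CPM to 5.83 and 6.39 CPM (-1.89 ± 0.18, adjusted p = 6.86e-06). The treated and untreated libraries of these 4 genes were far apart, and none overlapped.

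C4b encodes complement C4, the substrate of C1 (chromosome 17, 34728380 to 34743882, minus strand). Its untreated control libraries held 180 and 215 counts, 7.96 and 10.4 CPM, and the TGF-beta libraries 1 and 3 counts, a ratio of 95.8 (95% exact interval for counting error alone, 37.1 to 353) and a fitted log2 change of -6.52 ± 0.41 (adjusted p = 1.63e-07). It passed the filter only through its untreated libraries. C4b has a near copy, C4a, and 0% of its deposited values were within 0.01 of a whole number. How reads shared by the copies were counted is not given in the sources used here, so its level is uncertain. Summed, C4a and C4b fell from 10.1 ± 1.78 to 1.15 ± 0.0692 CPM. C4a alone averaged 0.880 CPM untreated and 1.06 CPM treated (0.26 ± 0.26, adjusted p = 0.555).

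Cfb encodes factor B, the protease of the alternative pathway (chromosome 17, 34856374 to 34862518, minus strand). It was low throughout: control cells held 1.95 and 2.37 CPM untreated and 0.763 and 0.974 CPM treated, from 44, 49, 14 and 23 counts. The libraries did not overlap, but the change did not pass the test (-1.29 ± 0.51, adjusted p = 0.0643) and passed it in 5 of the other settings, DESeq2 among them (adjusted p = 0.0450). The gene overlaps Gm20547 (34856412 to 34882042), a model on the same strand that also covers part of C2, and 6.25% of the deposited Cfb values were within 0.01 of a whole number. How reads in such overlaps were counted is not given in the sources used here, so its level is uncertain. Cfb, Gm20547 and C2 together went from 70.6 ± 4.12 to 18.7 ± 2.40 CPM. Most of that sum was C2, which went from 65.2 to 17.1 CPM, so the sum says little about Cfb.

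Lcn2 encodes lipocalin 2, an antibacterial protein that binds iron carriers (chromosome 2, 32384633 to 32388252, minus strand). It had 1 and 3 counts in untreated control libraries and 0 and 2 with TGF-beta, which shows no difference at this depth (ratio 1.94, interval 0.278 to 21.4).

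**Figure D1:**
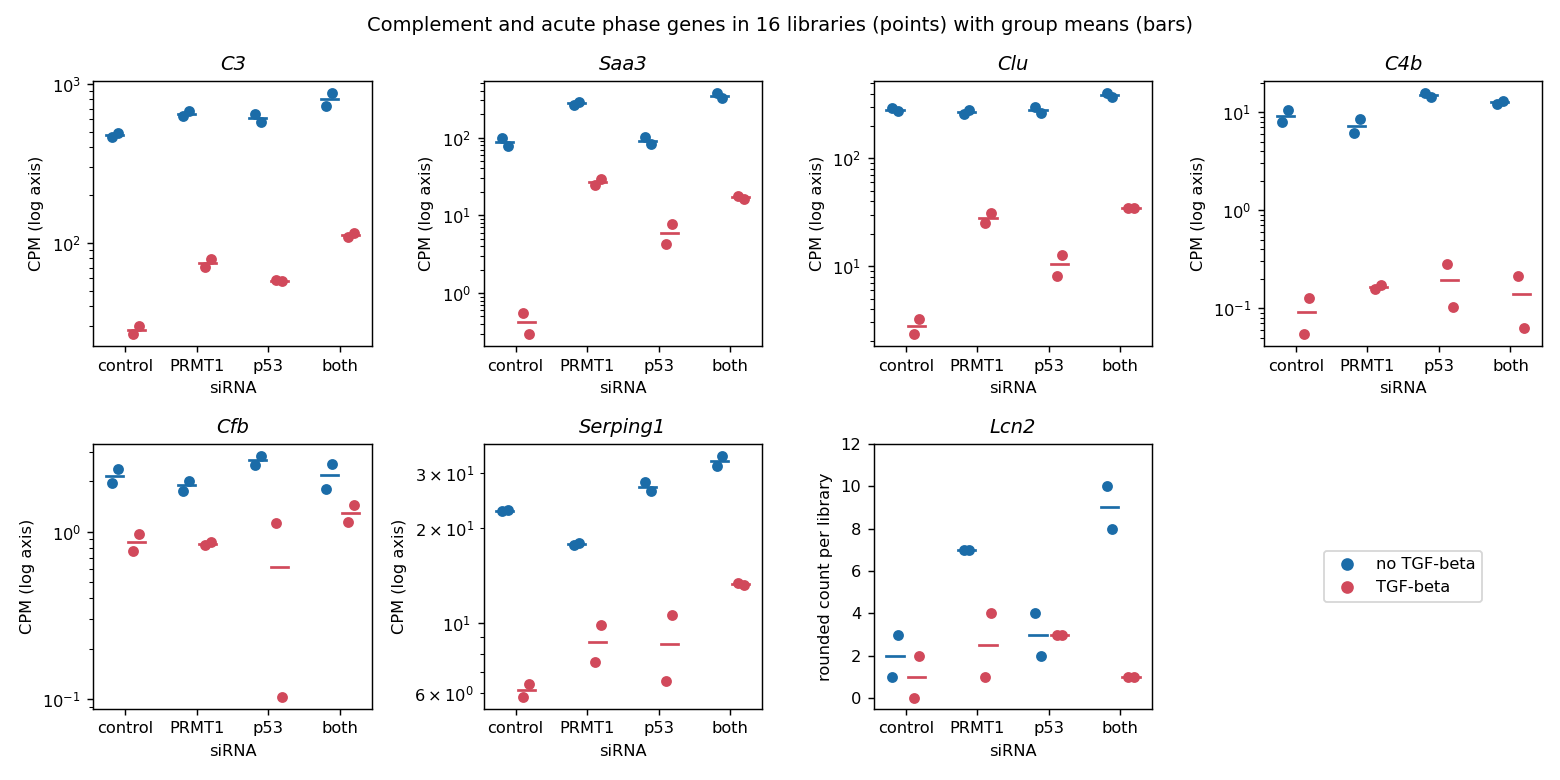
Levels of the 7 genes in each library, by siRNA, without (blue) and with TGF-beta (red). Points are libraries and bars are group means; the vertical axes are CPM on a log scale, except for Lcn2, in counts on a linear scale. TGF-beta libraries of C3, Saa3, Clu, C4b and Serping1 lie below all untreated libraries of the same gene.

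With the other siRNAs TGF-beta lowered the same 5 genes, among them C4b, which passed the filter only through its untreated libraries. Under PRMT1 siRNA 5 of 6 tested members fell, where 16.2% of all genes were called lower, with a median of -3.20 over the members and -0.013 over all genes. With p53 siRNA 6 of 6 fell, Cfb included, where 22.0% of all genes were called lower (medians -3.67 and 0.017). With both siRNAs 5 of 6 fell, where 16.3% of all genes were called lower (medians -3.16 and -0.017). The Cfb fall under p53 siRNA (-2.07 ± 0.52, adjusted p = 0.00677) rests in part on the library that stands apart: the treated replicates held 24 and 2 counts, and the change was -1.25 without that library (adjusted p = 0.00454) and -4.63 without the other. A fit of only these 2 groups did not call it (adjusted p = 0.192).

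What differed between the siRNAs was how much was left. C3 with TGF-beta was at 5.97% of its untreated level under control siRNA, 11.5% under PRMT1 siRNA, 9.50% under p53 siRNA and 14.0% under both. For Saa3 the shares were 0.480%, 9.72%, 6.52% and 4.91% in the same order, and for Clu 0.979%, 10.3%, 3.67% and 8.91%. The p53 siRNA shares rest in part on the library that stands apart. Treated Saa3 and Clu were at 7.69 and 12.7 CPM in it, against 4.22 and 8.07 CPM in its partner. Whether the Saa3 shares under p53 siRNA and under both differed was not tested. Thus Saa3 and Clu, the most deeply lowered of the abundant genes under control siRNA, kept most under PRMT1 siRNA. The C4b share was 0.989% under control siRNA and 1.11% to 2.28% under the others, from 4 counts in the 2 treated control libraries, too few to say whether it differed. The treated groups of the targeting siRNAs held 8 or 9 counts against 361 to 696 untreated with the targeting siRNAs. The Serping1 share was 26.9% under control siRNA and 31.7% to 48.6% under the others.

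**Figure D2:**
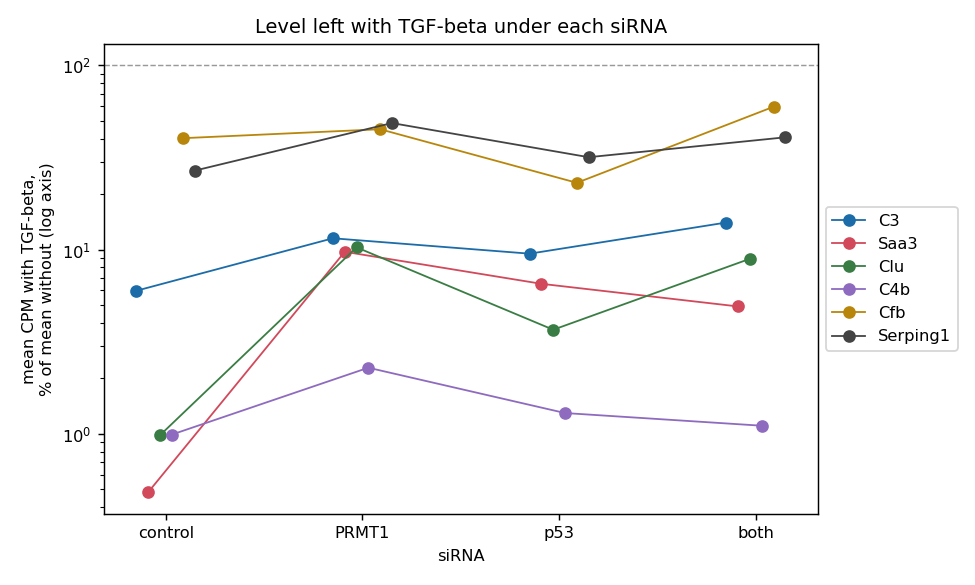
Mean CPM with TGF-beta as a percentage of mean CPM without, by siRNA, on a log axis, for the 6 tested genes; thin lines join the values of 1 gene. Saa3 and Clu rise from 0.480% and 0.979% under control siRNA to 9.72% and 10.3% under PRMT1 siRNA, and C4b, from 4 to 9 treated counts a group, lies between 0.989% and 2.28%.

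Markers of the epicardial state fell in the same treated libraries. With TGF-beta under control siRNA 9 of 10 epicardial and mesothelial markers were called lower, beside 20.6% of all genes. The summed level of the 10 markers went from 1740 to 1772 CPM to 293 to 302 CPM. The part of this change in the fall of the complement genes was not tested. Of the 8 macrophage markers 3 were tested and 2 were lower. The 8 summed to 5.08 to 6.41 CPM in untreated and 1.98 to 3.20 CPM in treated libraries of all siRNAs. One of 3 tested endothelial markers was called higher and 1 lower, and the 1 tested lymphocyte marker was higher. Beside these, 17.8% of all genes were called higher and 20.6% lower.

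The next comparisons ask what each siRNA did to the untreated cells. PRMT1 siRNA raised Saa3 and C3. Saa3 stood at 261 and 287 CPM against 97.5 and 77.8 CPM with control siRNA (1.65 ± 0.20, adjusted p = 0.000608), and no alternative or left-out library ended this call. C3 stood at 627 and 677 CPM against 465 and 489 CPM (0.45 ± 0.11, adjusted p = 0.0216). The C3 libraries did not overlap, but its call was lost without any 1 of the 4 libraries (adjusted p = 0.0870 to 0.152). These were 2 of 6 tested members, where 4.48% of all genes were called higher. The other members, Clu (-0.06 ± 0.17), C4b (-0.34 ± 0.21), Cfb (-0.19 ± 0.45) and Serping1 (-0.35 ± 0.17), did not pass the test. Serping1 lay below both control libraries, at 17.7 and 18.0 CPM against 22.7 and 22.8 CPM. Its fall passed in 3 of 12 alternatives, among them edgeR on only these groups (adjusted p = 0.0221). The members' median was -0.13 beside 0.010 over all genes.

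p53 siRNA called none of the 6 in untreated cells by edgeR, where 2.47% of all genes were called in either direction. C3 (0.36 ± 0.11, adjusted p = 0.128) and C4b (0.69 ± 0.21, adjusted p = 0.127) had an unadjusted p under 0.05. DESeq2 called 1 member, C3, and the fit without the library that stands apart called both. Saa3 was at 101 and 82.0 CPM, which overlaps the control libraries.

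With both siRNAs C3 stood at 727 and 877 CPM (0.75 ± 0.11, adjusted p = 0.00355) and Saa3 at 373 and 318 CPM (1.98 ± 0.21, adjusted p = 0.000721). These 2 of 6 members rose, where 2.31% of all genes were called higher. Clu at 404 and 372 CPM (0.45 ± 0.17, adjusted p = 0.163) and Serping1 at 31.6 and 34.0 CPM (0.52 ± 0.16, adjusted p = 0.101) lay above both control libraries and did not pass the test, and passed it in the fit without the library that stands apart, which called 4 members. Against PRMT1 siRNA alone, Serping1 was higher with both (0.87 ± 0.16, adjusted p = 0.0405) as 1 of 6 members, where 0.568% of all genes were called higher. That call was lost without any 1 of the 4 libraries (adjusted p = 0.192 to 0.411), whereas the fit without the library that stands apart called 5 members. The interaction of the siRNAs, whether their joint effect departed from the sum of the single ones, was called for 0 of 6 members and 0% of all genes by edgeR. Unadjusted p was under 0.05 for 2 members and 1192 genes, and DESeq2 called 0 members and 52 genes. An edgeR fit of only the untreated groups called Serping1 (0.63, adjusted p = 0.0349), so the absence of calls depended on the fit.

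The same siRNAs were compared in treated cells. With TGF-beta, PRMT1 siRNA raised 3 of 6 tested members, C3, Saa3 and Clu, where 9.13% of all genes were called higher (medians 1.08 and 0.019). C3 was at 70.5 and 79.7 CPM against 26.8 and 30.2 CPM (1.40 ± 0.11, adjusted p = 2.92e-05). Saa3 was at 24.2 and 29.1 CPM against 0.545 and 0.296 CPM (6.02 ± 0.35, adjusted p = 4.16e-06), a 64.9-fold difference in the fit. Clu was at 25.1 and 30.8 CPM against 2.34 and 3.22 CPM (3.31 ± 0.22, adjusted p = 6.69e-06). No library of one group overlapped the other, and every alternative kept these 3 calls. Serping1 (0.51 ± 0.19, adjusted p = 0.0876), C4b (0.77 ± 0.79) and Cfb (-0.04 ± 0.55) did not pass the test. Serping1, at 7.54 and 9.84 CPM against 5.83 and 6.39 CPM, passed it in 3 of 12 alternatives. Among these was edgeR on only these groups (adjusted p = 0.0117).

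p53 siRNA with TGF-beta also raised C3, Saa3 and Clu, 3 of 6 members, where 2.82% of all genes were called higher. C3 was at 58.4 and 57.6 CPM (1.02 ± 0.11, adjusted p = 0.000555), Saa3 at 4.22 and 7.69 CPM (3.85 ± 0.40, adjusted p = 0.000454) and Clu at 8.07 and 12.7 CPM (1.88 ± 0.23, adjusted p = 0.000994), all above both control libraries. The second value of each is from the library that stands apart, and the fit without it kept all 3 calls. A fit of only these 2 groups, whose spread that library sets, called none (adjusted p = 0.694 for each).

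Both siRNAs with TGF-beta raised 4 of 6 members, where 7.71% of all genes were called higher (medians 1.55 and 0.011). C3 was at 109 and 116 CPM (1.98 ± 0.11, adjusted p = 1.86e-06), Saa3 at 17.5 and 16.4 CPM (5.37 ± 0.36, adjusted p = 5.50e-06) and Clu at 34.4 and 34.9 CPM (3.62 ± 0.22, adjusted p = 2.32e-06). Serping1 joined them at 13.4 and 13.3 CPM against 5.83 and 6.39 CPM (1.12 ± 0.18, adjusted p = 0.00255). These calls held in every alternative. Against PRMT1 siRNA alone, C3 was higher with both (0.58 ± 0.11, adjusted p = 0.0470), 1 of 6 members, where 0.219% of all genes were called higher, and the call was lost without any 1 of the 4 libraries (adjusted p = 0.172 to 0.621). Saa3 was lower with both than with PRMT1 siRNA alone in both libraries (-0.65 ± 0.21, adjusted p = 0.293), a difference that did not pass the test. It passed in 3 of 12 alternatives, among them edgeR with no filter (adjusted p = 0.000158) and edgeR on only these groups (adjusted p = 0.00190).

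**Figure D3:**
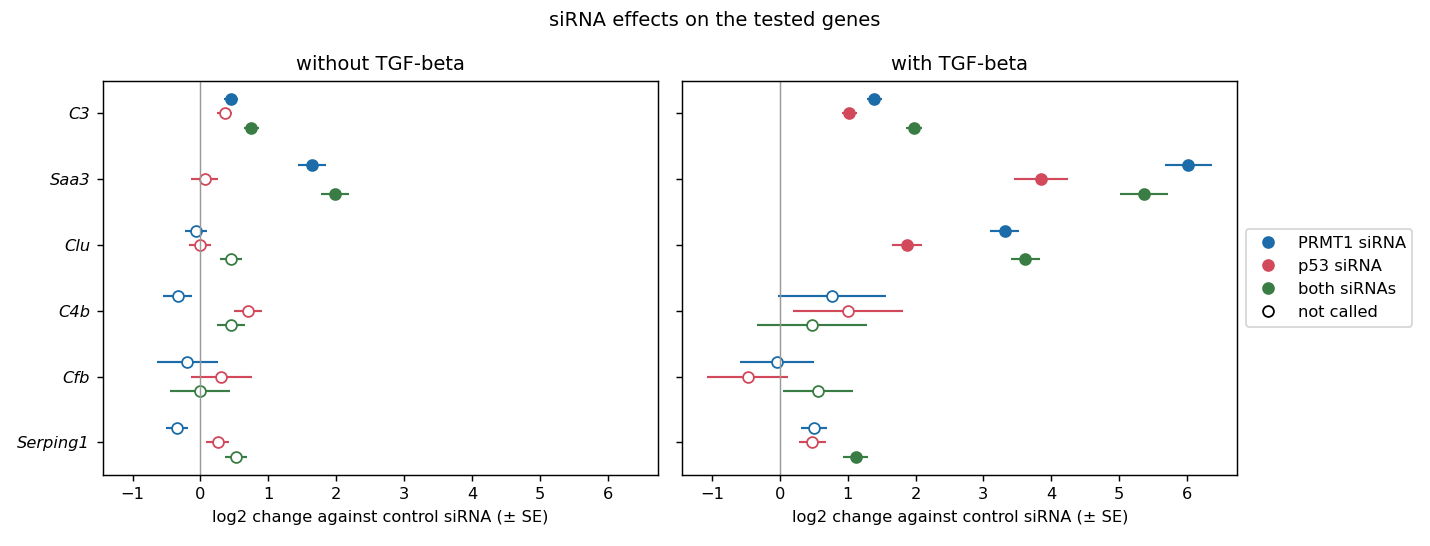
Log2 change ± SE of the 6 tested genes against control siRNA, without TGF-beta (left) and with it (right), for PRMT1 siRNA, p53 siRNA and both; filled points are called at adjusted p under 0.05. Saa3 under PRMT1 siRNA is at 1.65 on the left and 6.02 on the right, and Clu at -0.06 and 3.31.

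Whether an siRNA changed the TGF-beta response was tested as an interaction, in which a positive value means a smaller fall than with control siRNA. For PRMT1 siRNA 3 of 6 members were called, where 1.30% of all genes were called in this direction: Saa3 (4.37 ± 0.44, adjusted p = 0.000684), Clu (3.37 ± 0.27, adjusted p = 0.000300) and C3 (0.95 ± 0.15, adjusted p = 0.0117). The C3 call was lost without replicate 2 of untreated control, replicate 1 of control with TGF-beta, replicate 1 of untreated PRMT1 siRNA or replicate 2 of PRMT1 siRNA with TGF-beta (adjusted p up to 0.0770). Serping1 had a value of 0.86 ± 0.25 (adjusted p = 0.103), and DESeq2 called it (adjusted p = 0.0337). For C4b it was 1.11 ± 0.82 (adjusted p = 0.418).

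For p53 siRNA 2 of 6 members were called, where 0.452% of all genes were called in this direction: Saa3 (3.79 ± 0.46, adjusted p = 0.00468) and Clu (1.88 ± 0.28, adjusted p = 0.0115). C3 was at 0.67 ± 0.15 (adjusted p = 0.0732) and passed the test in the fit of 15 libraries (adjusted p = 0.0330) and by DESeq2 (adjusted p = 0.00396). The edgeR fit of only the 4 groups concerned called neither Saa3 nor Clu (adjusted p = 0.202 and 0.300). The Clu call was also lost without replicate 1 of untreated control, replicate 1 of control with TGF-beta or replicate 2 of untreated p53 siRNA (adjusted p = 0.0601 to 0.0646). The comparisons against control siRNA share its libraries, untreated or treated, those of both siRNAs against PRMT1 siRNA share groups with them, and each interaction shares groups with the single effects, so they are not separate evidence.

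Lcn2 counts, too few for the test, were 7 and 7 with PRMT1 siRNA, 4 and 2 with p53 siRNA and 10 and 8 with both siRNAs in untreated cells, against 1 and 3 with control siRNA. With TGF-beta they were 1 and 4, 3 and 3, and 1 and 1. Against control siRNA the ratio was 3.04 (interval 0.953 to 12.7) for PRMT1 siRNA and 3.61 (1.19 to 14.7) for both, and the intervals cover counting error only. Under both siRNAs the untreated and treated groups held 18 and 2 counts, a ratio of 9.98 (2.39 to 88.7). With no filter on low counts this was the 1 comparison in which Lcn2 was called (adjusted p = 0.0348).

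C4b and Cfb were not called in any siRNA comparison above, but C4b passed the test under other settings: untreated, DESeq2 called it higher with both siRNAs than with PRMT1 siRNA (0.79, adjusted p = 0.0362, and adjusted p = 0.108 by edgeR). The order of the C4b levels differed from that of C3 and Saa3: untreated p53 siRNA was highest at 14.8 ± 1.08 CPM, then both siRNAs at 12.5 ± 0.472, control at 9.18 ± 1.72 and PRMT1 siRNA at 7.27 ± 1.62. The control and PRMT1 libraries overlap. The treated groups, at 0.0908 to 0.192 CPM, each overlapped the next in order, while PRMT1 siRNA lay above control. C3 ran from 802 ± 106 CPM with both siRNAs through 652 ± 35.1 (PRMT1) and 611 ± 48.5 (p53), which overlap, to 477 ± 17.0 in control. Its treated groups kept that order and none overlapped its neighbour: 112 ± 4.96, 75.1 ± 6.50, 58.0 ± 0.547 and 28.5 ± 2.46 CPM. In Clu the untreated control, p53 and PRMT1 groups overlapped at 272 to 284 CPM, and the 4 treated groups did not overlap. The untreated Cfb groups, at 1.89 to 2.67 CPM, overlapped except that p53 siRNA lay above control and PRMT1 siRNA.

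Other genes of the pathways were taken from lists. Of 16 classical and lectin pathway genes, 10 were tested. With TGF-beta under control siRNA 20.6% of all genes were called lower, and 7 of these 10 fell and 0 rose (median -2.47, against -0.0087 over all genes). They included the C1 protease genes C1s1, from 377 to 19.0 CPM (-4.31 ± 0.11), C1s2 (-4.02 ± 0.11) and C1ra (-3.02 ± 0.11), of which C1s1 and C1s2, like C1ra and C1rb, are near copies whose counts are uncertain. C2, the partner of C4, fell by 1.92 ± 0.16 and Colec12, a scavenger collectin, by 1.12 ± 0.08. Colec11, a lectin that starts the pathway, averaged 5.04 CPM untreated and 0.0696 CPM treated, and could not pass the filter through these treated libraries. With TGF-beta, 5 of the 10 were higher under PRMT1 siRNA (9.13% of all genes), C1s1 by 1.97 ± 0.10, 5 under p53 siRNA (2.82%) and 7 under both (7.71%), and none was lower. As for the members, a fit of only control and p53 siRNA with TGF-beta called 0 genes of any list. The C1q subunit genes C1qa, C1qb and C1qc were not among the tested genes. Of 9 alternative and terminal pathway genes only C8g and Cfp were tested, and C8g fell (-0.77 ± 0.26, adjusted p = 0.0374), a call lost in 8 of 12 alternatives, DESeq2 and 3 of the 4 left-out libraries among them.

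Of 7 complement regulators tested, 3 rose and 3 fell with TGF-beta (median -0.63), where 17.8% of all genes were called higher and 20.6% lower. Cd55, a membrane brake on complement, fell from 94.2 to 7.50 CPM (-3.64 ± 0.16), while Cr1l, the rodent regulator Crry, rose (0.40 ± 0.07). Cd59a, an inhibitor of the lytic complex, rose by 0.43 ± 0.15 (adjusted p = 0.0410) and lost the call by DESeq2 and without any 1 of the 4 libraries. Cd46, low in these cells, fell by 0.65 ± 0.21 and Cfi, which cleaves C3b, rose from 0.113 to 0.439 CPM, calls that single libraries also decided. Cfi could not pass the filter through its untreated control libraries.

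Of 30 other acute phase genes, 12 were tested, and 10 fell and 0 rose with TGF-beta under control siRNA (median -1.38), beside 20.6% of all genes called lower. Steap4, a metalloreductase induced in inflammation, fell from 41.9 to 1.32 CPM (-4.95 ± 0.13), Lbp, which binds lipopolysaccharide, from 254 to 22.9 CPM (-3.47 ± 0.16), and its partner receptor Cd14 by 2.39 ± 0.16. The metallothionein gene Mt2 fell by 2.01 ± 0.20 and Ptx3, a soluble pattern receptor, by 0.88 ± 0.11. With TGF-beta, PRMT1 siRNA raised 7 of the 12 (9.13% of all genes), p53 siRNA 5 (2.82%) and both 8 (7.71%), and none was lower: Steap4 stood at 7.19 CPM under PRMT1 siRNA (2.41 ± 0.14), 4.41 CPM under p53 siRNA (1.70 ± 0.15) and 13.6 CPM under both (3.33 ± 0.14). The Steap4 interaction of PRMT1 siRNA with TGF-beta was 2.04 ± 0.17 (adjusted p = 0.000321).

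Of 6 tested cytokine genes that induce the acute phase, 3 rose and 1 fell, beside 17.8% and 20.6% of all genes. Il6 rose from 5.30 to 15.7 CPM (1.57 ± 0.12) and Lif, of the same family, from 17.8 to 38.2 CPM (1.10 ± 0.11). Il1a was at 0 CPM in untreated control libraries and 0.478 CPM with TGF-beta. It could pass the filter only through groups other than untreated control, so its rise is not separate support. Of 13 cytokine and Toll-like receptor genes, all tested, 8 fell and 1 rose (median -0.61). Lifr fell by 1.88 ± 0.17, Il1r1 by 1.29 ± 0.15, and Osmr, the oncostatin M receptor, by 0.66 ± 0.14, while Osmr was higher under PRMT1 siRNA both without (0.70 ± 0.14) and with TGF-beta (0.75 ± 0.14), calls that 3 and 2 single libraries decided. Of 16 tested transcription factor and feedback genes 9 fell and 2 rose (median -0.41). Cebpd, a C/EBP factor, fell from 48.5 to 20.0 CPM (-1.28 ± 0.20) and Socs3, the STAT3 feedback inhibitor, by 1.29 ± 0.11. The NF-kappa-B genes Tnfaip3 (1.57 ± 0.09) and Nfkbiz (0.98 ± 0.11) rose. In treated cells Cebpd averaged 34.7 CPM under PRMT1 siRNA, 39.7 CPM under p53 siRNA and 42.2 CPM under the combination, each called above control with TGF-beta, and single libraries decided these calls. Unless a call is said to be lost, named genes of these lists called in the TGF-beta response under control siRNA kept it in every alternative, 35 of 43 in all.

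**Figure D4:**
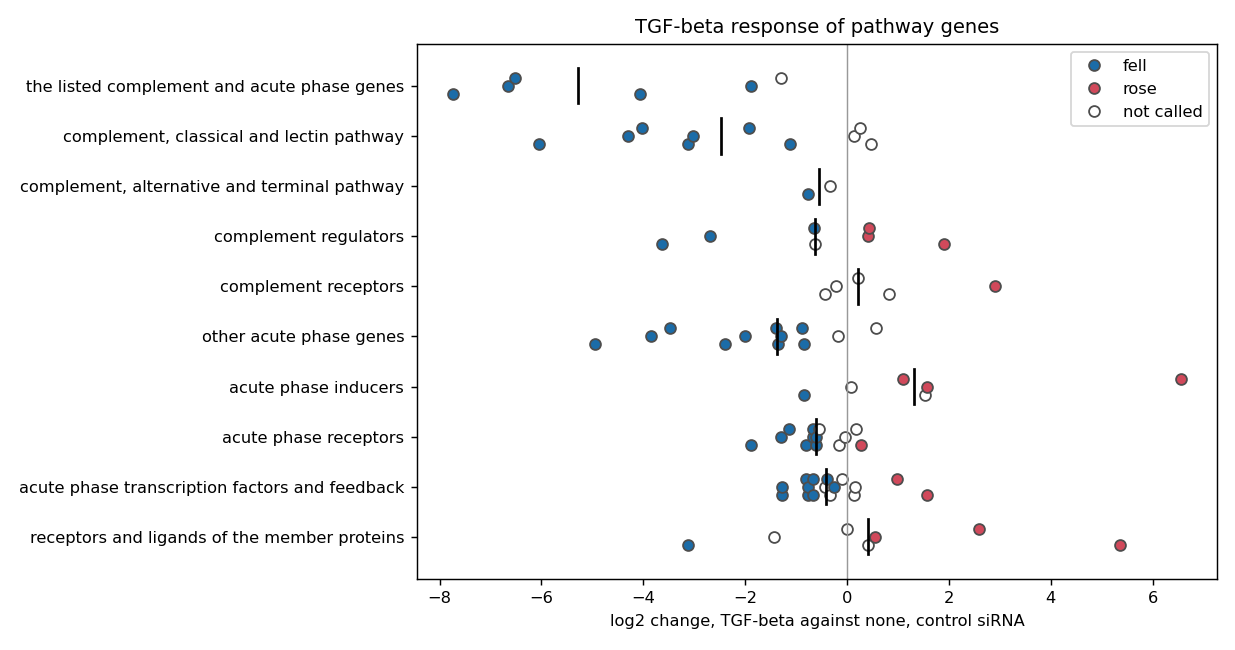
Log2 change with TGF-beta under control siRNA of the members and of the tested genes of 9 lists (1 point per gene, filled where called, blue lower and red higher; vertical bars are medians). The classical pathway and other acute phase lists lie mostly to the left of 0, at medians of -2.47 and -1.38.

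Genes that followed a member most closely over the 16 libraries were sought among the 10739 tested genes whose mean was 5 CPM or more, by Pearson's r of log2 CPM. Because TGF-beta moves all points, r within the 8 untreated and the 8 treated libraries is given too for some pairs. Libraries of a group and of a treatment are not independent. For Saa3 the closest were Cxcl5, a neutrophil chemokine (r = 0.982, and 0.960 and 0.949 within untreated and treated), Cdc42ep2 (0.974) and Alpl, alkaline phosphatase (0.974). Untreated Cxcl5 averaged 306 CPM in control cells and 594, 261 and 551 CPM under PRMT1, p53 and combined siRNA, and treated Cxcl5 24.2, 138, 69.3 and 181 CPM in that order. For C3 they were Fgfr2, a growth factor receptor (0.995), Lpl, lipoprotein lipase (0.994), and Gata6, an epicardial transcription factor (0.994, but 0.536 within the untreated). For Clu they were Igfbp3 (0.991), C1s1 (0.991) and Sord (0.991), where C1s1 gave 0.429 within the untreated and 0.991 within the treated libraries. Serping1 was nearest to Bnip3l (0.980) and C4b to Baiap2l1 (0.988, and 0.445 within the treated, where C4b had 1 to 6 counts). Cfb was nearest to Kdm5a (0.964, but 0.390 within the untreated and 0.979 within the treated). In the treated p53 siRNA group, which holds the library that stands apart, Kdm5a ranged from 55.4 to 124 CPM and Cfb from 0.103 to 1.13 CPM. Between members, C3 and Clu correlated at 0.649 within the untreated and 0.967 within the treated libraries, and Saa3 and Clu at 0.595 and 0.961.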

How the data were processed

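RNA of 16 MEC1 libraries in 8 groups was analysed from the deposited gene table. It holds deposited expected counts, many of them fractional. The submitters' processing notes name TopHat2, Partek and mm10, while versions, annotation, strand and counting options are not given in the sources used here. A share of 60.0% of all nonzero entries was whole to within 0.01. Values were rounded to whole counts. Titles gave each sample's group.

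All 16 libraries entered 1 model of group means in edgeR 4.0.16 (TMM scaling, filterByExpr, quasi-likelihood F test) in R 4.3.3. p-values were adjusted (Benjamini-Hochberg) over the 15494 genes tested in each of 15 comparisons, and a gene was called at an adjusted p under 0.05. SE is the log2 change divided by the root of F. Adjusted p-values are edgeR's unless another tool is named. CPM are TMM-scaled and given per library or as mean ± SD. Levels per kilobase used GENCODE vM21 transcript lengths. Intervals on count ratios are exact at 95%.

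The members, the gene lists, the markers and the naming rule were chosen with earlier results of these data known. The rule names the members; up to 4 genes per list with the lowest adjusted p in the TGF-beta response under control siRNA and up to 2 in each siRNA effect without TGF-beta; the highest gene of a list; the 3 genes most like each member; the siRNA targets; and genes overlapping a member. Cebpd, Nfkbiz, C3ar1 and other named genes follow it. The macrophage markers, Saa1, Saa2, C1qa, C1qb, C1qc, C1rb and C4a were named after their values were seen. A few genes that the rule names are not reported here.

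Alternatives were DESeq2 1.42.0, RLE factors, no filter, only the groups of the comparison, a replicate block, 15 libraries, offsets for trends with transcript length (16 and 15 libraries), and leaving out each library; a group left with 1 library is assumed to vary like the others. Replicate numbers did not pair the libraries. The procedure was tested on simulated data.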

Additional observations from a re-analysis of the deposited data

Results flagged for a closer look

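The TGF-beta response of Saa3, Clu and C3 differed between siRNAs by a test of the difference itself, the interaction term in edgeR, with positive values for a smaller fall than under control siRNA. For PRMT1 siRNA it was 4.37 ± 0.44 (log2 ± SE, adjusted p = 0.000684) for Saa3, 3.37 ± 0.27 (adjusted p = 0.000300) for Clu and 0.95 ± 0.15 (adjusted p = 0.0117) for C3. For p53 siRNA it was 3.79 ± 0.46 (adjusted p = 0.00468) for Saa3 and 1.88 ± 0.28 (adjusted p = 0.0115) for Clu. A fit of only the groups concerned called neither p53 value (adjusted p = 0.202 and 0.300). The calls of Clu with p53 siRNA and of C3 with PRMT1 siRNA were also lost without single libraries, 3 and 4 of them (adjusted p up to 0.0646 and 0.0770). Both comparisons share the control libraries, in which treated Saa3 rests on 10 and 7 counts, and p53 siRNA with TGF-beta holds the library that stands apart.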

How the results depend on the processing

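Each result was recomputed with RLE factors, with no low-count filter, with a replicate block, with 15 libraries (without replicate 2 of p53 siRNA plus TGF-beta, the library that stands apart), with offsets for transcript length on 16 or 15 libraries, with the groups of the comparison alone, by DESeq2, and without each library in turn. Of the members' values under these settings 997 kept direction and side of the threshold, 86 passed it, 27 no longer did and 36 changed sign, and the cause was not tested. The counts of members called in the TGF-beta responses and in PRMT1 or both siRNAs with TGF-beta stayed within 1.5 times the reported ones.

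Other counts of members called moved. For p53 siRNA in untreated cells (0 reported) it was 1 with no filter, 2 with 15 libraries, 1 and 3 with length offsets on 16 and 15 libraries, 1 for the groups alone and 1 by DESeq2. For p53 siRNA with TGF-beta (3 reported) it was 0 for the groups alone and 3 to 5 with a library left out, the 5 without replicate 1 of the treated p53 group. For both siRNAs in untreated cells (2 reported) it was 4 with no filter, 4 with 15 libraries, 4 and 5 with length offsets and 4 for the groups alone. For both against PRMT1 siRNA in untreated cells (1 reported) it was 3 with no filter, 5 with 15 libraries, 4 and 4 with length offsets, 4 for the groups alone, 3 by DESeq2 and 0 without any of the 4 libraries. The same comparison with TGF-beta (1 reported) gave 3, 3, 2, 3 and 4 under these edgeR settings and 0 without any of the 4 libraries. PRMT1 siRNA in untreated cells (2 reported) gave 1 without any of the 4, and its interaction with TGF-beta (3 reported) 2 to 3 with a library left out and up to 4 in the other settings. The p53 siRNA interaction with TGF-beta (2 reported) gave 0 for the groups alone and 1 to 5 with a library left out, and the interaction of the siRNAs (0 reported) 2 with 15 libraries, 2 with length offsets on them and 1 for the groups alone.

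Values on the reversed side of 0 were not called in any setting. The ranges below also hold values of the reported sign, 3 of which passed the threshold, each without replicate 1 of the treated p53 group. Clu under p53 siRNA in untreated cells was 0.032 with length offsets on 16 and 0.032 on 15 libraries, and -0.11 to 0.095 with a library left out, where Saa3 ranged from -0.11 to 0.23. Cfb under p53 siRNA with TGF-beta was 0.35 with 15 libraries and 0.35 with offsets on them. With a library left out it ranged from -3.02, which passed, to 0.35. Its interaction value was 0.054 and 0.022 in the same settings and -3.34, which passed, to 0.054 with a library left out. Serping1 in that interaction was -0.14 with 15 libraries, -0.036 and -0.21 with length offsets on 16 and 15, and -0.14 to 0.54, the latter past the threshold, with a library left out, and C4b ranged from -0.58 to 1.07. For both siRNAs, untreated Cfb was 0.0046 with no filter and -0.26 to 0.23 with a library left out, and treated C4b -0.55 to 1.23. Left-out libraries gave Cfb -0.20 to 0.16 for PRMT1 siRNA with TGF-beta, -0.0041 to 0.35 for its interaction and -0.070 to 0.42 for both against PRMT1 siRNA untreated, and C4b -1.33 to 0.36 for the latter with TGF-beta. In the interaction of the siRNAs, C3 was 0.088 and 0.087 and Saa3 -0.0073 and -0.0086 with length offsets on 16 and 15 libraries. There, left-out libraries gave C3 -0.20 to 0.071, C4b -0.11 to 0.34 and Cfb -0.38 to 0.12.

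Replicate numbers did not pair the libraries: over 28 pairs of groups, deviations of same-numbered libraries correlated at -0.401 to 0.246 (median -0.0024, 6 over 0.1). With the replicate block the members called in both against PRMT1 siRNA were 0 untreated (Serping1 adjusted p = 0.0501) and 0 with TGF-beta (C3 adjusted p = 0.0552), and no other member call was lost.

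Over all genes, the TGF-beta response called 5950 genes with control, 5035 with PRMT1, 7012 with p53 and 4851 with both siRNAs, and 4344 to 4620, 3080 to 3228, 5082 to 10075 and 3172 to 3501 with a library left out. Without any one library, p53 siRNA in untreated cells called 55 to 127 genes (382 reported) and both against PRMT1 siRNA 4 to 9 (134 reported). The groups alone called 0 genes for p53 siRNA with TGF-beta (808 reported) and 0 for its interaction (158 reported). Depth limits Lcn2, with 57 counts in all, and treated C4b, with 4 to 9 counts a group.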

Other observations

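Of 7 tested genes for receptors and partners of the member proteins, 3 rose and 1 fell with TGF-beta under control siRNA, beside 17.8% and 20.6% of all genes. Lrp8 and Vldlr, receptors of the lipoprotein receptor family that bind clusterin, rose by 2.60 ± 0.18 (from 9.08 to 55.1 CPM) and 0.55 ± 0.11, and Mmp9, a gelatinase that forms a complex with lipocalin 2, went from 1.07 to 43.7 CPM. Plxna4, a semaphorin co-receptor reported to bind clusterin, fell from 255 to 29.4 CPM (-3.12 ± 0.28). With TGF-beta, Lrp8 was lower under PRMT1 siRNA (-1.30 ± 0.16) and under both siRNAs (-1.36 ± 0.16). Slc22a17, the lipocalin 2 receptor, averaged 5.52 CPM untreated and 5.53 CPM treated, a difference within the spread of the libraries.

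Of 5 tested complement receptor genes 1 rose with TGF-beta under control siRNA, where 17.8% of all genes were called higher. It was C3ar1, the receptor of the C3a fragment, from 0.0705 to 0.566 CPM (adjusted p = 0.0177). That call was lost without either untreated control library or replicate 1 of control with TGF-beta. C3ar1 could not pass the filter on low counts through its untreated control libraries. Cd93 stood at 2.51 CPM in untreated control and 0.865 CPM with PRMT1 siRNA (-1.53 ± 0.27, adjusted p = 0.00487), a call lost without replicate 1 of untreated PRMT1 siRNA.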
